A study of Mus musculus with 2 samples.

Results

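The genes described here are the variable (V) gene segments of the alpha and beta chains of the T cell receptor, measured in mouse spleen by droplet-based single-cell RNA sequencing. They were taken as every symbol starting with Trav or Trbv that had at least 1 unique molecular identifier (UMI, a tag that marks a single captured RNA molecule) in the deposited count table. Of 163 such symbols, 89 met the rule, among 18393 symbols of any kind with a UMI. They comprised 68 of 128 Trav symbols and 21 of 35 Trbv symbols. Their usage was compared across double-negative (DN), CD8 and CD4 T cells, which were set by transcript counts alone.

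The series set out to chart the spleen's immune cells where the actin regulator WASP is lost, the defect behind the immune deficiency Wiskott-Aldrich syndrome. Its labels name 2 spleen samples from mice aged 6 to 8 weeks, 1 titled as the knockout (WAS-KO) and 1 titled as wild type (WT). The labels give no strain, sex or number of animals behind a sample. The table ties no barcode to either sample, so all values below describe 1 pooled set of cells, the genotypes cannot be told apart in it, and differences between cell classes have no replicate check.

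Each T cell builds its receptor by joining 1 of many V segments to a short joining segment (with a diversity segment in between for the beta chain) and splicing the product to a constant gene: Trac for the alpha chain, Trbc1 or Trbc2 for the beta chain. The V segment encodes most of the part that meets antigen and MHC, so the range of V genes in a population is a coarse picture of its repertoire. Conventional T cells carry CD4 or CD8 as a co-receptor for MHC class II or class I. T cells with neither include gamma delta T cells, which build a different receptor, and some natural killer T (NKT) cells, whose alpha chain uses a fixed V segment.

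The V segments that the results turn on are shown by the last 60 bases of their annotated transcripts (GENCODE vM21, GRCm38), 5′ to 3′. For 7 Trbv genes on chromosome 6, capitals run from the codon of the conserved cysteine to the end of the annotated transcript. The hypervariable CDR3 loop opens at that codon. These ends are shown because members of 1 subgroup have to be told apart by sequences this alike.
Trbv2: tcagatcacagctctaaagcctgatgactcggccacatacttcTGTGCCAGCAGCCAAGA
Trbv3: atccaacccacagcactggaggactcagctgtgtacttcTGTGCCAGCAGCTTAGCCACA
Trbv12-1: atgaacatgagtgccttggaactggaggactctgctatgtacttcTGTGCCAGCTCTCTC
Trbv12-2: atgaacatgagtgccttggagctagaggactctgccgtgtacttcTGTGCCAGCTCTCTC
Trbv13-1: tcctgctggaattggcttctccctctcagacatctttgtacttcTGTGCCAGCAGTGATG
Trbv13-2: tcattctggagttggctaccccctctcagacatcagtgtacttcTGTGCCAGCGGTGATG
Trbv13-3: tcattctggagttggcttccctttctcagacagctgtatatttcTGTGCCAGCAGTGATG
Trbv12-1 and Trbv12-2 were identical at 88.3% of 385 aligned bases of their whole transcripts. The 3 Trbv13 members were identical to each other at 86.1 to 90.6% of aligned bases. Each of these 7 genes had only unique 90-base windows, meaning that no such window occurred in the transcript of another gene.

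For Trav, 3 copies of Trav16 on chromosome 14 are shown in the same way, with capitals at the positions where the 3 differ. They stand for the segments of the Trav locus that exist as nearly identical copies, named with a D or an N.
Trav16: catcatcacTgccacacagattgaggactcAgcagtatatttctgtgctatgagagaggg
Trav16d-dv11: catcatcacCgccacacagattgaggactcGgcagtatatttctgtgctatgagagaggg
Trav16n: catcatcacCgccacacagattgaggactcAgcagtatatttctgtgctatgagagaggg
Over their whole transcripts these copies were identical at 98.0 to 98.9% of aligned bases, and 57.9% of the 90-base windows of Trav16d-dv11, 59.4% of those of Trav16n and 77.3% of those of Trav16 were unique to the gene.

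T cells were barcodes with at least 200 genes, at most 10% mitochondrial UMIs and a summed Cd3d, Cd3e and Cd3g count of at least 2. There were 1209 of them among 6588 filtered barcodes. DN cells (no Cd4 UMI and fewer than 2 Cd8a and Cd8b1 UMIs) numbered 271, or 22.4% of T cells (95% exact Clopper-Pearson interval 20.1 to 24.9%). CD8 cells (Cd8a and Cd8b1 sum of at least 2, no Cd4 UMI) numbered 342, or 28.3% (25.8 to 30.9%), and CD4 cells (Cd4 of at least 1, Cd8 sum under 2) numbered 584, or 48.3% (45.5 to 51.2%). Another 12 cells met both rules and were set aside. Median depth was 6562 UMIs in DN, 8625 in CD8 and 6725 in CD4 cells. All intervals here cover counting error only. Those of shares of cells treat cells as independent. Those of CPM ratios and of UMI shares treat UMIs as independent and are too narrow, because up to 10 UMIs of 1 gene lay in 1 cell.

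The DN rule takes in cells of several kinds, because a cell whose few Cd4 or Cd8 transcripts were not captured also meets it. Trdc, the constant gene of the delta chain, was at 247 counts per 1000000 UMIs (CPM) in DN, 15.7 CPM in CD8 and 12.2 CPM in CD4 cells, and 45 of the 271 DN cells had a Trdc UMI. Trac had a UMI in 40.0% of those 45 cells, in 81.0% of the other 226 DN cells, in 94.4% of CD8 cells and in 96.6% of CD4 cells. Foxp3, the transcription factor of regulatory T cells, which mostly carry CD4, had a UMI in 17 DN cells (6.27%), in no CD8 cell and in 34 CD4 cells (5.82%).

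Other cell types' transcripts differed between the classes. All 8 B cell markers had UMIs in every class, and together they made up 815 CPM in DN, 352 CPM in CD8 and 478 CPM in CD4 cells, against 8873 CPM in 2939 B cells (3 or more Cd79a, Cd79b and Ms4a1 UMIs and no CD3 UMI). All 9 myeloid markers were likewise detected, at 16452 CPM in DN, 2466 CPM in CD8 and 4739 CPM in CD4 cells, and all 6 erythroid markers at 22213, 4859 and 16480 CPM in the same order. Without the barcodes that had 3 or more B cell UMIs (11.1% of DN, 7.89% of CD8 and 6.51% of CD4 cells), the share of cells with a Trbv UMI was 12.9% in DN, 18.1% in CD8 and 18.9% in CD4 cells. The part of myeloid and erythroid transcripts in these CPM levels was not tested.

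The 89 members together held 800 UMIs, and 778 of these lay in the 1209 T cells. Trbv genes had 276 UMIs in T cells and Trav genes 502. A Trbv UMI was present in 35 of 271 DN cells (12.9%, 9.16 to 17.5%), in 60 of 342 CD8 cells (17.5%, 13.7 to 22.0%) and in 112 of 584 CD4 cells (19.2%, 16.1 to 22.6%). A Trav UMI was present in 50 DN cells (18.5%, 14.0 to 23.6%), 73 CD8 cells (21.3%, 17.1 to 26.1%) and 162 CD4 cells (27.7%, 24.1 to 31.6%). B cells, which do not make this receptor, gave the background: a Trbv UMI in 4 of 2939 cells (0.136%) and a Trav UMI in 5 (0.170%), at a median depth of 5216 UMIs. All 3 T cell classes were far above it, and 35.8% of T cells showed a V gene of either chain.

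**Figure D1:**
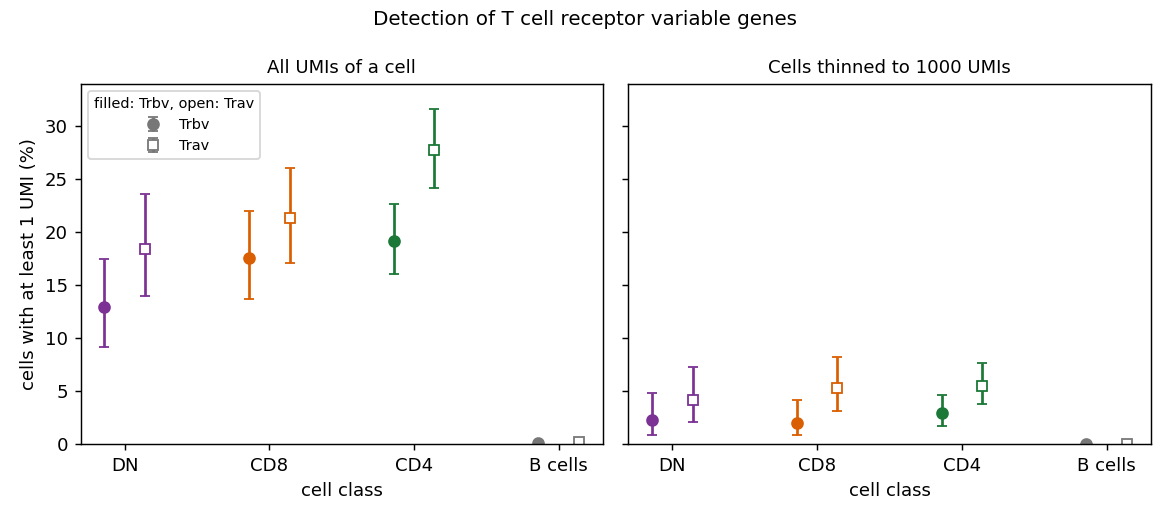
Share of cells (%) with at least 1 Trbv UMI (filled circles) or Trav UMI (open squares) in DN, CD8, CD4 and B cells, from all UMIs (left) and after each cell was thinned to 1000 UMIs (right); bars are exact 95% intervals. With all UMIs, Trbv was found in 12.9, 17.5 and 19.2% of DN, CD8 and CD4 cells, against 0.136% of B cells.

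Cells were thinned to 1000 UMIs each to put the classes on 1 depth, which left out 5 DN cells and no CD8 or CD4 cell. A Trbv UMI was then found in 2.26% (0.832 to 4.84%) of DN, 2.05% (0.827 to 4.17%) of CD8 and 2.91% (1.70 to 4.62%) of CD4 cells. The intervals overlapped throughout, so no order of the classes was detectable at that depth. The thinned share for Trav was 4.14% in DN, 5.26% in CD8 and 5.48% in CD4 cells, again with overlapping intervals.

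Relative to all UMIs of a class, Trbv genes stood at 19.4 CPM in DN, 24.0 CPM in CD8 and 34.1 CPM in CD4 cells. The log2 ratio was -0.82 (-1.35 to -0.31) for DN over CD4 and -0.51 (-0.92 to -0.11) for CD8 over CD4. The DN values depended on the CD3 rule: with a CD3 sum of at least 1, chosen as an alternative, the log2 ratio of DN over CD4 was -2.14 for Trbv and -2.21 for Trav, and 6.08% of DN cells had a Trbv UMI. Trav genes stood at 35.0 CPM in DN, 43.6 CPM in CD8 and 63.3 CPM in CD4 cells, with log2 ratios of -0.86 (-1.25 to -0.48) and -0.54 (-0.84 to -0.24) over CD4. The constant genes lay in the same order. Trac was at 470 CPM in DN, 616 CPM in CD8 and 768 CPM in CD4 cells. Set against the constant gene of their own chain, the classes were closer: there were 1.08 Trbv UMIs per 100 Trbc1 and Trbc2 UMIs in DN, 1.09 in CD8 and 1.33 in CD4 cells, and 7.44, 7.08 and 8.25 Trav UMIs per 100 Trac UMIs.

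All 21 detected Trbv genes belong to the 22 that the annotation lists as functional, and none of the 13 Trbv pseudogenes had a UMI. The functional gene without a UMI was Trbv5, of whose 90-base windows only 25.8% are unique, the rest being shared with the gene model 5830405F06Rik. Trbv21 had 1 UMI in a barcode that did not pass the filters, and Trbv23 had 1 UMI in a T cell that met both the CD4 and the CD8 rule. The other 19 were found in the 3 classes.

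Usage was read from the leading Trbv gene of a cell, the one with the most Trbv UMIs, so that a cell counts once however many UMIs it has. The library was 3-prime, and 17.5% of T cells had a Trbv UMI while 98.1% had a Trbc1 or Trbc2 UMI. The counts do not show whether a V UMI came from the cell's rearranged receptor. The shares below therefore describe detected V transcripts. A single leading gene could be given to 33 DN, 59 CD8 and 105 CD4 cells, and ties left out 2, 1 and 7 cells in the same order. In 30 of the 33 DN, 49 of the 59 CD8 and 83 of the 105 CD4 cells, the leading gene rested on 1 UMI. The 33 DN cells were led by 14 genes, the 59 CD8 cells by 15 and the 105 CD4 cells by 17. No class was dominated by a single gene: the highest share was 15.2% in DN (Trbv2 and Trbv12-2, 5 cells each), 15.3% in CD8 (Trbv12-2) and 21.0% in CD4 (Trbv2).

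Trbv2 (chromosome 6, 41047340 to 41047995, plus strand), the second segment of the locus, had the most UMIs of any Trbv gene, with 7 in DN, 12 in CD8 and 33 in CD4 cells. It led 5 of 33 DN cells (15.2%, 5.11 to 31.9%), 6 of 59 CD8 cells (10.2%, 3.82 to 20.8%) and 22 of 105 CD4 cells (21.0%, 13.6 to 30.0%). The log2 ratio of these shares was -0.47 (-2.22 to 0.97) for DN over CD4 and -1.04 (-2.63 to 0.30) for CD8 over CD4. Both intervals include 0. Trbv13-2 (chromosome 6, 41121396 to 41121832), a segment also used by NKT cells, led 4 DN cells (12.1%), 6 CD8 cells (10.2%) and 14 CD4 cells (13.3%), a range within counting error.

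Trbv12-2 (chromosome 6, 41118851 to 41119364) led 5 DN cells (15.2%), 9 CD8 cells (15.3%) and 8 CD4 cells (7.62%), and the intervals overlapped. Its neighbour Trbv12-1 (chromosome 6, 41113550 to 41114067) led no DN cell, 5 CD8 cells (8.47%, 2.81 to 18.7%) and no CD4 cell. The exact interval of the log2 ratio of CD8 over CD4 shares began at 0.71, with no upper end because CD4 had none. Trbv12-1 was the only one of the 18 Trbv genes compared this way whose interval left out 0. No interval was widened for the number of genes. CD4 cells stood at 0 here because ties were set aside. By UMIs the same gene had 0 in DN, 5 in CD8 and 2 in CD4 cells, the 2 in CD4 cells lying in tied cells. As a pair, grouped after the values were seen, Trbv12-1 and Trbv12-2 led 5 of 33 DN cells (15.2%, 5.11 to 31.9%), 14 of 59 CD8 cells (23.7%, 13.6 to 36.6%) and 8 of 105 CD4 cells (7.62%, 3.35 to 14.5%).

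Trbv13-1 (chromosome 6, 41116007 to 41116468) led 2 DN, 6 CD8 and 6 CD4 cells, and Trbv13-3 (chromosome 6, 41130147 to 41130585) led 0 DN, 1 CD8 and 8 CD4 cells. The 3 Trbv13 genes together, also grouped after the values were seen, led 18.2% of DN (6.98 to 35.5%), 22.0% of CD8 (12.3 to 34.7%) and 26.7% of CD4 cells (18.5 to 36.2%). Trbv3 (chromosome 6, 41048290 to 41048828), the next segment after Trbv2, led 1 DN cell, no CD8 cell and 6 CD4 cells. The log2 ratio of CD8 over CD4 shares had an upper end of 0.60, so a higher share in CD8 cells lay within counting error.

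**Figure D2:**
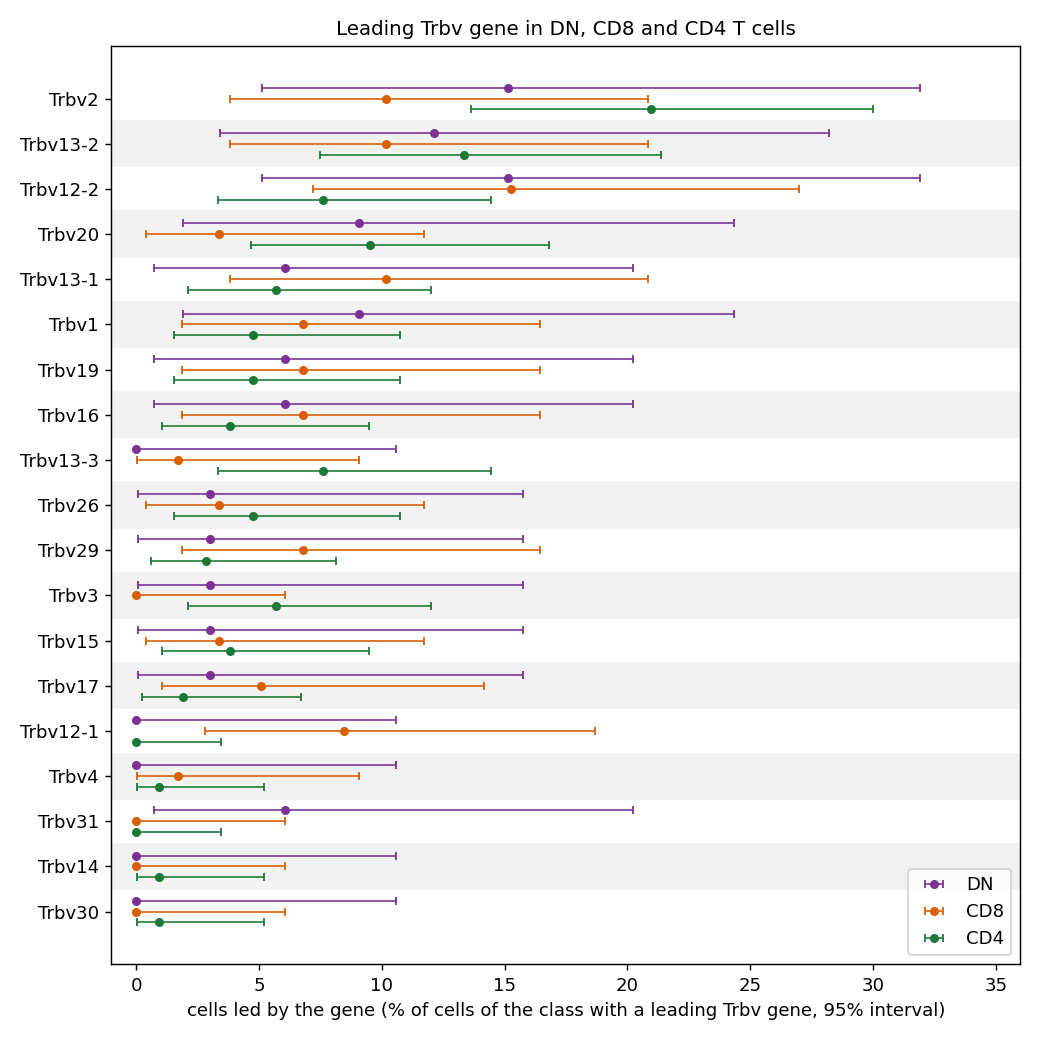
Share (%) of the cells of a class with a leading Trbv gene that each gene led, in DN (33 cells), CD8 (59) and CD4 (105) cells; points are shares, bars exact 95% intervals, and genes run by the number of T cells they led. The 3 intervals overlap for every gene; Trbv12-1 led 5 CD8 cells and no DN or CD4 cell.

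The remaining genes led few cells each. Trbv20 led 3 DN, 2 CD8 and 10 CD4 cells, Trbv1 led 3, 4 and 5, and Trbv19 led 2, 4 and 5 in the same order. Trbv16 led 2 DN, 4 CD8 and 4 CD4 cells, Trbv29 led 1, 4 and 3, and Trbv26 led 1, 2 and 5. Trbv15 led 1 DN, 2 CD8 and 4 CD4 cells and Trbv17 led 1, 3 and 2. In some mouse strains, T cells that use Trbv12, Trbv16 or Trbv26 are deleted by superantigens that endogenous mammary tumour viruses encode. Here, all of them led cells: 27 for the Trbv12 pair, 10 for Trbv16 and 8 for Trbv26 among all T cells. Trbv31 is the only Trbv gene that lies beyond the constant genes, on the opposite strand (chromosome 6, 41557691 to 41558452, minus strand). It led 2 DN cells and no CD8 or CD4 cell, although 1 CD4 cell had a Trbv31 UMI beside another gene. Trbv4 led 0 DN, 1 CD8 and 1 CD4 cell, and Trbv14 and Trbv30 led 1 CD4 cell each.

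Across the 18 genes that led a cell in either of the 2 classes compared, the leading shares of CD8 and CD4 cells had a Pearson r of 0.44 and a Spearman rho of 0.40. Those of DN and CD4 cells had an r of 0.73 and a rho of 0.63. These are descriptions across genes, which are not independent replicates, and both use the same CD4 shares.

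Of 128 Trav symbols, 64 of 108 annotated as functional and 4 of 20 pseudogenes had a UMI. The pseudogene UMIs numbered 12: 6 for Trav22, 3 for Trav9n-1, 2 for Trav8-2 and 1 for Trav15n-3. Detection followed how distinct a symbol's sequence is. Of 39 Trav symbols with no unique 90-base window, 1 had a UMI (Trav3d-3, with 1). Of 22 with some but under 50% unique windows, 14 had a UMI, with 49 UMIs in all. Of 67 with at least 50%, 53 had a UMI, with 464 in all. The 55 symbols without a D or N in their name had 42 detected members and a median of 90.3% unique windows. The 39 D copies had 13 detected members and a median of 0.403%, and the 34 N copies had 13 and a median of 0%. A Trav symbol at 0 therefore cannot be read as an unused gene.

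The 15 Trav genes with the most UMIs held 290 of the 496 Trav UMIs in the 3 classes (58.5%). They were Trav3-3, Trav5-4, Trav16n, Trav6-7-dv9, Trav14d-3-dv8, Trav14-2, Trav13-4-dv7, Trav6n-6, Trav13-1, Trav4-4-dv10, Trav7-5, Trav21-dv12, Trav9-1, Trav7-4 and Trav12-2. Trav3-3 (chromosome 14, 53665929 to 53666506) was first, with 2 UMIs in 2 DN cells, 7 in 6 CD8 cells and 29 in 12 CD4 cells, the richest CD4 cell holding 10. Trav5-4 (chromosome 14, 53704007 to 53704514) had 2 UMIs in 2 DN cells, 20 in 6 CD8 cells and 12 in 8 CD4 cells. Up to 8 of its UMIs came from 1 CD8 cell. Trav16n (chromosome 14, 53351028 to 53351621) had 4 UMIs in 4 DN cells, 15 in 9 CD8 cells and 8 in 7 CD4 cells. Trav9-1 (chromosome 14, 53488045 to 53488567) had 12 UMIs in 4 CD4 cells and none in the other classes.

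The Trav locus was divided into 3 parts of equal gene number by distance from Trac, because V segments near the joining segments are known to rearrange first in developing thymocytes. The proximal part (Trav7-4 to Trav23, 42 symbols) held 67.6% of the Trav UMIs in DN (55.7 to 78.0%), 71.1% in CD8 (62.9 to 78.4%) and 65.0% in CD4 cells (59.1 to 70.6%). The middle part (43 symbols) held 24.3% in DN, 23.2% in CD8 and 27.5% in CD4 cells. The distal part (Trav1 to Trav8d-2, 43 symbols) held 8.11% in DN, 5.63% in CD8 and 7.50% in CD4 cells. The 3 classes were alike within their intervals. The gradient along the locus ran together with sequence distinctness: the median share of unique windows was 88.3% in the proximal, 14.7% in the middle and 5.52% in the distal part. Among symbols with at least 50% unique windows, T cells had a mean of 8.49 UMIs per symbol in the proximal part (37 symbols), 6.88 in the middle part (16) and 2 in the distal part (14).

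**Figure D3:**
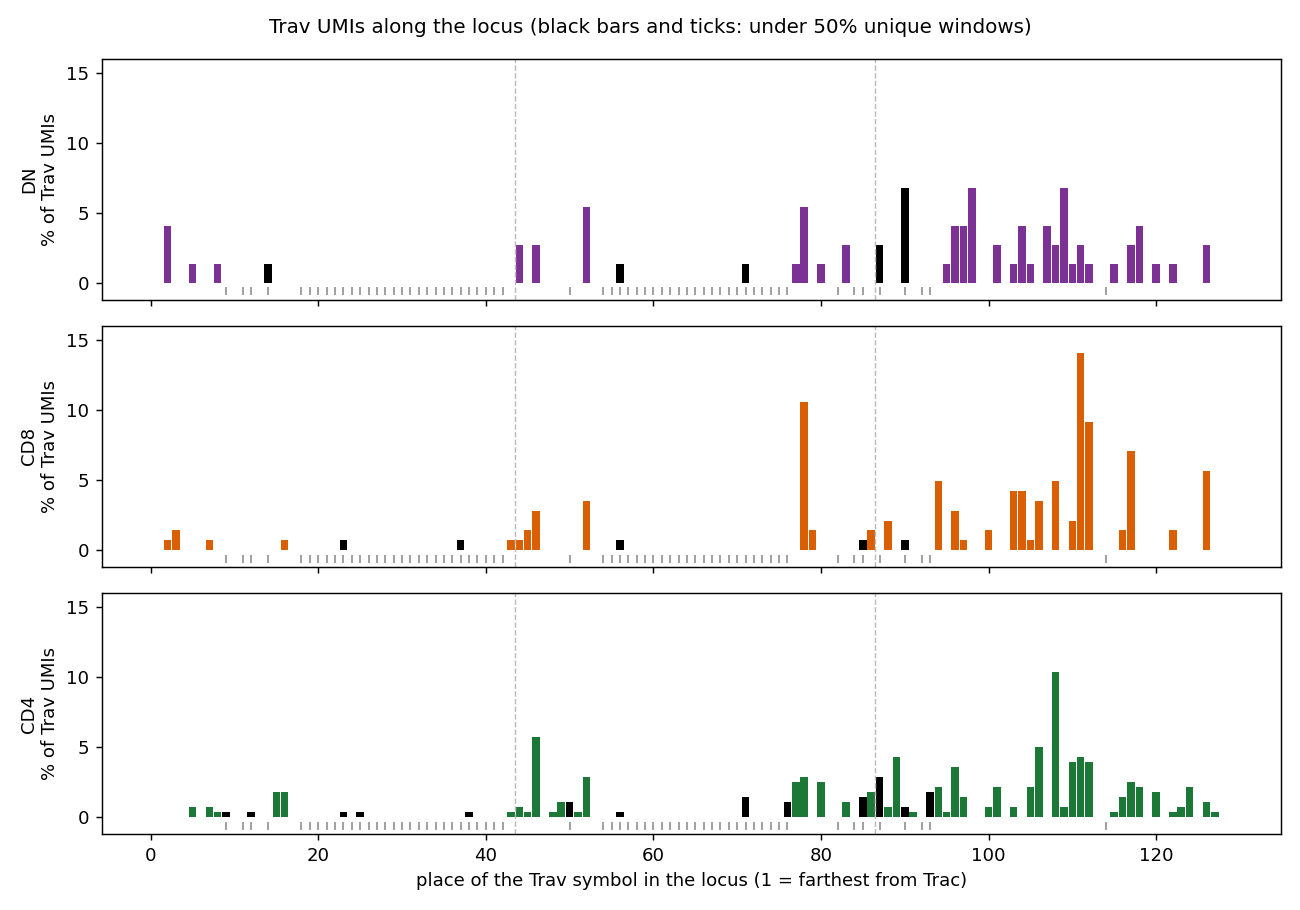
Each Trav symbol's share (%) of the Trav UMIs of DN (top), CD8 (middle) and CD4 (bottom) cells, by its place in the locus from the distal end; dashed lines part the locus in 3, and black bars and grey ticks mark symbols with under 50% unique 90-base windows. Most UMIs lie in the proximal part at the right (67.6, 71.1 and 65.0% in DN, CD8 and CD4), and the long stretches of ticks hold few.

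Copies were also summed, which leaves less doubt over the copy a read came from but does not remove it, since some windows are shared between groups of copies. The 128 symbols formed 57 groups of copies, 46 of them with a UMI. The 3 Trav14-3 copies had UMIs in 4 DN cells (1.48%), 4 CD8 cells (1.17%) and 18 CD4 cells (3.08%), with a log2 ratio of cell shares of -1.40 (-3.42 to 0.20) for CD8 over CD4. The 3 Trav16 copies had UMIs in 5 DN cells (1.85%), 11 CD8 cells (3.22%) and 11 CD4 cells (1.88%), a log2 ratio of 0.77 (-0.57 to 2.12). The 3 Trav13-4 copies had UMIs in 2 DN, 6 CD8 and 5 CD4 cells, a log2 ratio of 1.04 (-0.94 to 3.09). The 3 Trav9-1 copies had UMIs in 0 DN, 1 CD8 and 8 CD4 cells, a log2 ratio of -2.23 (-7.70 to 0.67). All 4 intervals include 0.

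Single genes were compared between CD8 and CD4 cells where they had at least 20 UMIs over both classes, which 8 V genes did (3 Trbv and 5 Trav). Among all 9995 genes compared at that minimum, 3.54% were at least 2-fold higher and 4.49% at least 2-fold lower in CD8 cells. Of the 8 V genes, 2 were that much higher and 4 that much lower. Trbv2, Trbv13-2 and Trav3-3 reached the minimum on CD4 UMIs alone (33, 23 and 29, against 12, 8 and 7 in CD8 cells). Trav5-4 reached it on CD8 UMIs alone (20, against 12 in CD4 cells). The CD8 class held fewer UMIs, so the minimum favoured genes lower in CD8 cells. The directions of the 8 were partly set by it. The 9995 genes were not matched to these 8 in UMI count, and at counts this low a 2-fold ratio can lie within counting error. Whether the 8 differ from genes of like count was not tested. Trav16n stood at 4.61 CPM in CD8 and 1.81 CPM in CD4 cells (log2 1.35, 0.02 to 2.80), and Trav5-4 at 6.15 and 2.71 CPM (log2 1.18, 0.08 to 2.35). Trav3-3 stood at 2.15 CPM in CD8 and 6.56 CPM in CD4 cells (log2 -1.61, -3.04 to -0.39), Trav14d-3-dv8 at 1.23 and 3.62 CPM (log2 -1.56, -3.60 to 0.08), Trbv13-2 at 2.46 and 5.20 CPM (log2 -1.08, -2.45 to 0.13) and Trbv2 at 3.69 and 7.46 CPM (log2 -1.02, -2.10 to -0.03). Trbv12-2 (log2 0.32) and Trav6-7-dv9 (log2 0.68) were within 2-fold.

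Several UMIs of a gene can come from 1 cell, so the same genes were also compared by cells. Counted that way, Trav16n was in 2.63% of CD8 and 1.20% of CD4 cells (log2 1.13, -0.46 to 2.79) and Trbv2 in 1.75% and 3.94% (log2 -1.17, -2.75 to 0.17). Trav3-3 was in 1.75% of CD8 and 2.05% of CD4 cells (log2 -0.23), and Trav5-4 in 1.75% and 1.37% (log2 0.36). By cells, 1 V gene was at least 2-fold higher and 1 at least 2-fold lower, against 5.15% higher and 1.96% lower of the 9995 genes. The median log2 ratio of all these genes by cells was 0.21, and the interval of each of the 8 genes included 0.

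**Figure D4:**
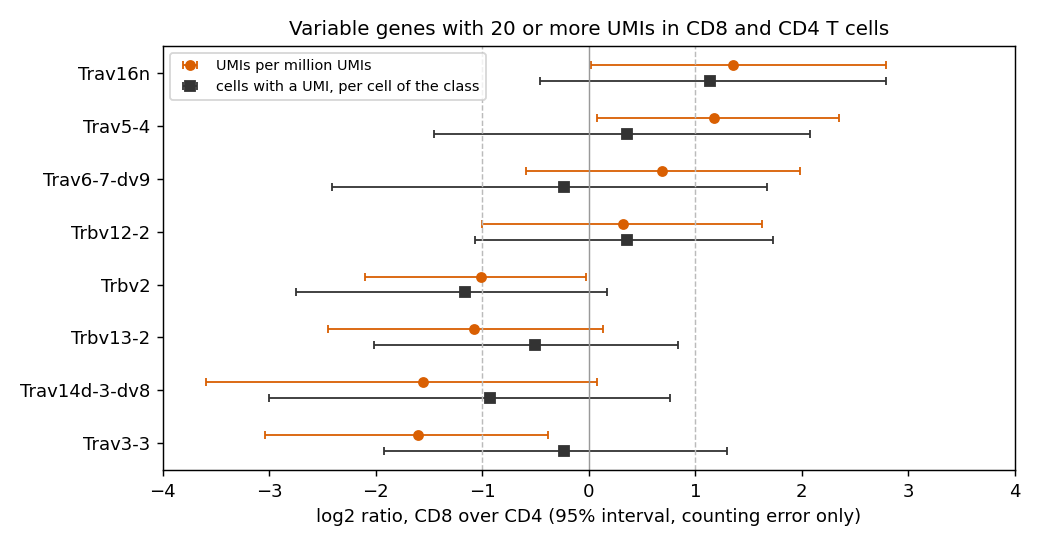
Log2 ratio of CD8 over CD4 for the 8 V genes with at least 20 UMIs over both classes, by CPM (orange circles) and by share of cells with a UMI (black squares), with exact 95% intervals; dashed lines mark 2-fold. Trav5-4 and Trav3-3 lie past 2-fold by UMIs (log2 1.18 and -1.61) and within it by cells (0.36 and -0.23).

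For DN over CD4, 3 V genes reached the minimum of 20 UMIs, and all were at least 2-fold lower in CPM. Among all 9924 genes compared, which were not matched to them in UMI count, 1.79% were that much lower and 5.59% that much higher. All 3 reached the minimum on CD4 UMIs alone (Trbv2 33, Trbv13-2 23 and Trav3-3 29, against 7, 5 and 2 in DN cells). The DN class held fewer UMIs, so the minimum favoured genes lower in DN cells, and the shared direction of the 3 was partly set by it. Trbv2 stood at 3.31 CPM in DN and 7.46 CPM in CD4 cells (log2 -1.17, -2.59 to 0.03), Trbv13-2 at 2.36 and 5.20 CPM (log2 -1.14, -2.89 to 0.29) and Trav3-3 at 0.945 and 6.56 CPM (log2 -2.79, -5.91 to -0.81). As shares of the Trbv UMIs of each class, Trbv2 and Trbv13-2 differed by log2 -0.36 (-1.78 to 0.84) and -0.32 (-2.07 to 1.11) between DN and CD4 cells. As a share of Trav UMIs, Trav3-3 differed by log2 -1.94 (-5.05 to 0.04), and by cells, with 2 DN and 12 CD4 cells, by -1.48 (-4.68 to 0.69). By cells, 1 of the 3 genes was at least 2-fold lower in DN than in CD4 cells and none at least 2-fold higher, against 1.43% lower and 3.65% higher of the 9924 genes. For DN over CD8 only Trav5-4 reached the minimum, at 0.945 CPM in DN and 6.15 CPM in CD8 cells (log2 -2.70, -5.84 to -0.66). It too reached the minimum through 1 class, with 20 UMIs in CD8 and 2 in DN cells. By cells, with 2 DN and 6 CD8 cells, its log2 ratio was -1.25 (-4.59 to 1.23). In CPM, 1.82% of 9609 genes were at least 2-fold lower and 6.94% at least 2-fold higher.

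Of T cells with 2 or more Trbv UMIs, 33 of 47 (70.2%, 55.1 to 82.7%) had all of them on 1 gene, and the leading gene held 85.7% of the UMIs of these cells. For Trav the count was 66 of 96 (68.8%, 58.5 to 77.8%), with 87.7% of UMIs on the leading gene. Of these cells, 37 of the 47 for Trbv and 51 of the 96 for Trav had exactly 2 UMIs. The leading gene holds at least 1 of 2 UMIs by definition, so the shares of UMIs on it could not be low. The 14 T cells with 2 or more Trbv genes held 16 gene pairs, a pair being counted once for each cell that held it. In 5 of these pairs the genes lay within 10 kb of each other: Trbv12-2 with Trbv13-2 in 3 cells (2.03 kb apart) and Trbv2 with Trbv3 in 2 cells (0.295 kb apart). Of the 190 possible pairs of the 20 genes found in T cells, 12 (6.32%) lie that close. That share counts each pair once and does not weigh genes by usage, so it is no background for the 5 of 16. Whether close genes were found together more often than their usage gives was not tested. Of the 14 cells, 1 was called a doublet and 2 had 3 or more B cell UMIs.

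A UMI of both chains was found in 7 DN cells (2.58%), 22 CD8 cells (6.43%) and 36 CD4 cells (6.16%). A leading gene for both chains could be given to 60 T cells, which held 54 different pairs of Trav and Trbv. No pair was seen in more than 2 cells. By constant gene, Trbc1 had more UMIs than Trbc2 in 30.2% of DN (24.6 to 36.4%), 31.0% of CD8 (26.0 to 36.2%) and 27.4% of CD4 cells (23.8 to 31.2%) that favoured either. These 2 constant genes are nearly identical in their coding part, so the counting may have split reads from that part.

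UMIs of the segments of innate-like receptors were few. Trav11 (chromosome 14, 53519303 to 53519859), the alpha segment of NKT cells, had 5 UMIs in 2 CD4 cells and none in DN or CD8 cells. Only 0.394% of its 90-base windows are unique, since it is almost identical to Trav11d, which had no UMI. Trav1, the segment of mucosal-associated invariant T cells, had none either. A count of 0 allows up to 1.11% of DN, 0.877% of CD8 and 0.514% of CD4 cells to hold a UMI. It sets no limit on the cells that use the segment. A UMI of any Trav gene was found in only 18.5% of DN, 21.3% of CD8 and 27.7% of CD4 cells. Some Trav segments can also join to Trdc and are named with dv. Of 10 such symbols 9 were detected, and they held 24.3% of the Trav UMIs of DN (15.1 to 35.7%), 27.5% of CD8 (20.3 to 35.6%) and 18.2% of CD4 cells (13.9 to 23.2%). Trav15-1-dv6-1 had 5 UMIs in 3 DN cells and Trav15-2-dv6-2 had 3 UMIs in 2 DN cells, and neither had any in CD8 or CD4 cells. Of the 3 cells with Trav15-1-dv6-1, 1 had Trdc and all 3 had Trac. Both DN cells with Trav15-2-dv6-2 also had Trdc, 48 UMIs in all, and no Trac UMI. In the 45 DN cells with Trdc, 9 of the 13 Trav UMIs fell on dv symbols, against 9 of 61 in the 226 without.

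Together, the 13 symbols of the V genes of the gamma and delta chains made up 64.7 CPM in DN, 9.83 CPM in CD8 and 3.62 CPM in CD4 cells. Trdv4, a delta segment, had 49 UMIs in 6 DN cells, none in CD8 cells and 1 in CD4 cells. Trgv2, a gamma segment, had 52 UMIs in DN, 23 in CD8 and 6 in CD4 cells, and Tcrg-V1 had 17, 1 and 1. Trdv1 had 1 UMI in DN, 5 in CD8 and 3 in CD4 cells, and Trdv2-2 had 4, 1 and 4. Trdv2-1, Trdv3, Tcrg-V7 and Tcrg-V5 had none in the 3 classes. With the Trdc-bearing cells left out, a Trbv UMI was found in 14.2% of DN cells (9.89 to 19.4%), and in 6.67% (1.40 to 18.3%) of the 45 cells with Trdc.

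The 10 listed genes of innate-like T cells together made up 1183 CPM in DN, 608 CPM in CD8 and 470 CPM in CD4 cells, and 64.6% of DN, 88.6% of CD8 and 48.5% of CD4 cells had a UMI of any. Of the 10, 8 were at least 2-fold higher in DN than in CD4 cells and none was at least 2-fold lower, against 5.59% higher and 1.79% lower of all genes compared, with a median log2 ratio of 1.57 against 0.04 over all genes compared. Zbtb16, the transcription factor that directs NKT cell development, stood at 17.0 CPM in DN, 1.54 CPM in CD8 and 3.84 CPM in CD4 cells. Fcer1g, an adaptor of NK and innate-like cells that myeloid cells also express, stood at 295 CPM in DN, 75.0 CPM in CD8 and 82.1 CPM in CD4 cells. Cd160, Xcl1, Klrb1c, Il2rb, Cxcr6 and Tbx21 were the others at least 2-fold higher; Il18r1 and Ikzf2 were within 2-fold. Tbx21, a transcription factor of effector lymphocytes, was at 22.7 CPM in DN, 36.6 CPM in CD8 and 7.69 CPM in CD4 cells, and Il18r1, a cytokine receptor subunit, at 63.8, 70.1 and 37.1 CPM. For CD8 over CD4, 3 were at least 2-fold higher and 2 at least 2-fold lower, against 3.54% and 4.49% of all genes. NK markers, which overlap this list in Klrb1c, made up 951 CPM in DN, 726 CPM in CD8 and 196 CPM in CD4 cells. Among constant and CD3 genes, 4 of 11 were at least 2-fold higher in DN than in CD4 cells, against 5.59% of all genes (Trdc, Tcrg-C1, Tcrg-C2 and Tcrg-C4). Rag1 and Rag2, which cut the V segments during rearrangement, had 7 and 0 UMIs in the 3 classes together, all 7 in 1 CD8 cell. Dntt, which adds bases at the joint, had 1 UMI in DN, 3 in CD8 and 6 in CD4 cells.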

How the data were processed

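Spleen cells were profiled by 10x Genomics 3-prime single-cell RNA sequencing, and transcripts were mapped to mm10-3.0.0, per the labels' protocols. What counted the reads, and the read length, is not given in the sources used here. Raw UMI counts, not normalized, were deposited by the authors as 1 table of 31017 symbols and 7524 barcodes holding 46882070 UMIs. No column is tied to a sample, so the table was treated as 1 pooled sample. With 1 sample no p-value was computed.

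Of 7524 barcodes, 101 had under 200 genes and 857 had over 10% mitochondrial UMIs, and 6588 passed. Scrublet (scanpy 1.11.5, seed 0) called 137 doublets (2.08%, 60 of them in T cells), which stayed in and were removed as an alternative. Shares have exact Clopper-Pearson and ratios exact conditional binomial intervals at 95%. A count of 0 was taken to allow 3 counts. Ratios were computed for all genes with at least 20 UMIs over both classes. Ratio intervals were tested on simulated class sums, drawn as independent Poisson counts for each gene. That setting has no cells, so it cannot check intervals where several UMIs of 1 gene lie in 1 cell. Positions, annotated types and transcript sequences were read from the GENCODE vM21 annotation (GRCm38, also named mm10). Unique 90-base windows were counted against all its transcripts. Symbols were not split by strand, and reads of near-identical copies may have been split or dropped by the authors' counting.

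The named genes are every Trbv gene with at least 20 UMIs over the 3 classes, the 15 Trav genes with the most UMIs, Trav genes with the 5 highest and 5 lowest ratios at that minimum, Trav11, Trav11d, Trav1 and the members of the lists, of which 1 is not reported here. The other Trbv genes are named to account for every member. Members and lists were chosen with earlier results of these data known.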

Additional observations from a re-analysis of the deposited data

Results flagged for a closer look

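A signal from T cell receptor variable genes lay outside the T cell rule: 20 UMIs in 20 of the 5379 barcodes with fewer than 2 CD3 UMIs, 8 of them Trbv and 12 Trav. No such barcode held more than 1, and 1 had a CD3 UMI. Of the 20, 9 had 3 or more B cell UMIs, which 58.3% of the 5379 barcodes had. Trav22, annotated as a pseudogene, had 5 UMIs in these barcodes, 1 in each of 5, against 1 UMI in a CD4 cell among the T cells. All 5 had a UMI of the NK cell markers Ncr1 or Klrb1c, which 390 of the 5379 barcodes (7.25%) had. Of the 5, 3 had a Trdc UMI and none had a Trac UMI or 3 or more B cell UMIs.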

How the results depend on the processing

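Across 49 values and 22 alternatives, 523 of 576 recomputed values stayed within the interval of the reported value (or within 1.5 times, for a count), 53 moved beyond it and none changed sign after passing 2-fold. A CD3 sum of at least 1 in place of 2 gave 38.4% DN, 22.4% CD8 and 38.2% CD4 cells, with a Trbv UMI in 6.08% and a Trav UMI in 8.45% of DN cells, and log2 ratios of -2.14 for Trbv and -2.21 for Trav of DN over CD4. Stricter class rules gave 28.5% CD4 cells, and removing DN cells with a Trdc UMI gave 18.7% DN cells. Leading genes with at least 2 UMIs left 66.7% of DN, 50% of CD8 and 54.5% of CD4 cells to Trbv2, Trbv12-2 and Trbv13-2, against 42.4%, 35.6% and 41.9%. These shares rest on few cells: before ties were left out, 5 DN, 11 CD8 and 29 CD4 cells had 2 or more Trbv UMIs. Thinning to 1000 UMIs gave 2.26% of DN, 2.05% of CD8 and 2.91% of CD4 cells with a Trbv UMI and 4.14%, 5.26% and 5.48% with a Trav UMI. It left 1 T cell with several Trbv UMIs (0% with all on 1 gene) and 6 with several Trav UMIs (100%). The 2 V genes at least 2-fold higher in CD8 than CD4 became 0 with a mitochondrial maximum of 5% or a minimum of 50 UMIs, 1 with stricter classes, without doublets, without barcodes with 3 or more B cell UMIs or by cells, and 13 with no minimum. The 4 that were lower became 1 with the 5% maximum or by cells, 2 with cells of both rules counted or as shares of V UMIs, 0 with the minimum of 50 and 44 with none. For DN over CD4, the 3 lower became 1 with a CD3 sum of at least 3, without barcodes with 3 or more B cell UMIs, by cells or as shares of V UMIs, 0 with the minimum of 50 and 47 with none, and the 0 higher became 14 with none. Counting by cells, counting as shares and restricting Trav to unique symbols were chosen after the data had been seen. Except for these constructions, the cause was not tested. No paired analysis was possible because no column is tied to a sample. With 33 to 105 leading cells a class, shares of single genes have wide intervals.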
